A study of Danio rerio with 3 samples.

Results

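Insulin (ins), glucagon (gcga) and somatostatin 2 (sst2) are the 3 hormone genes followed here in whole zebrafish (Danio rerio) larvae that had been exposed to oil emulsion as embryos. The members were all probe sets whose single platform gene symbol was ins, gcga or sst2, which gave 3 of the 15617 probe sets on the array, 1 for each gene. A probe set is a group of short probes that together read one transcript. All larvae, the unexposed ones included, were taken at 192 h post-fertilization (hpf), and the labels state no strain or genotype.

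The exposed embryos were kept 30 to a cup in 100 ml of zebrafish medium above 250 mg of oil emulsion spread on the floor of the cup. The emulsion, labelled Gulfport, came from the Gulf of Mexico shoreline after the Deepwater Horizon blowout and held alkanes, polynuclear aromatic hydrocarbons, sand and seawater. The early-window group was exposed from 0 to 48 hpf and then spent 144 h in clean medium, and the late-window group was exposed from 48 to 96 hpf and then spent 96 h in clean medium. Control embryos stayed in zebrafish medium with no emulsion added. Each group was measured on 1 array of total RNA, so no value here has a replicate, no test was possible and no p-value is given. How many larvae were pooled for an array is not stated in the labels.

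The islets are the endocrine part of the pancreas. Insulin is made by beta cells and lowers blood glucose by driving its uptake and storage; glucagon is made by alpha cells and raises blood glucose by releasing it from liver glycogen and by new synthesis; somatostatin is made by delta cells and restrains the secretion of both. Each hormone is made as a larger precursor, which is cut by prohormone convertases and stored in dense-core granules. In zebrafish the first islet cells form during the first day of development, and by the larval stage an islet containing these cell types lies embedded in the exocrine pancreas, the tissue that makes digestive enzymes.

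The values are log2 expression values made by the authors with RMA (robust multi-array average), which removes background, gives the arrays a common distribution and combines the probes of each probe set. The median over all probe sets was 7.22 (control), 7.20 (early window) and 7.23 (late window). A gene was counted as bright enough to compare when at least 1 of the 3 arrays read it at 7.21, the median over every deposited value, or above, and 5492 genes passed. All 3 hormone genes passed, and each was above that level on every array. The median of 17 probe sets for tag sequences foreign to zebrafish, a reading of background, was 4.62 (control), 4.77 (early window) and 4.85 (late window). The measure of technical spread used below is the disagreement between probe sets of the same gene. Over 717 genes with several bright probe sets, the differences between arrays scattered around the mean of their gene with an SD of 0.11 for early minus control, 0.16 for late minus control and 0.13 for late minus early. That SD leaves out the spread between clutches and between RNA samples. The hybridisation spike-ins are bacterial and phage transcripts added in equal amount to each labelled sample. Their 18 probe sets gave a mean early-minus-control difference of -0.50 (SD 0.12) and a mean late-minus-control difference of 0.01 (SD 0.14). For late minus early their SD was 0.19, above the 0.13 between probe sets of a gene. All differences below are on the deposited scale, on which the median gene lay at 0.00 for early minus control and -0.02 for late minus control. On a spike-in scale every early-minus-control difference would lie 0.50 higher.

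The somatostatin transcript sst2 differed most of the 3 hormones between exposed and control larvae. The sst2 probe set read 7.73 in control larvae, 8.37 after early exposure and 8.13 after late exposure. The control array was the lowest and the early-window array the highest. The early-window value was 1.57-fold that of control, a log2 difference of 0.65, which was 5.81 times the SD between probe sets of a gene. Only 16 of the 5492 genes, sst2 included, had an early-minus-control difference at least as high. The late-window value was 1.32-fold that of control, a log2 difference of 0.40 and 2.44 times the corresponding SD, and 3.004% of genes lay at or above it. The late-window array was 0.84-fold the early-window array for sst2, a log2 difference of -0.25 and -1.84 times the SD.

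Glucagon followed the same order of arrays with smaller differences. The log2 value of gcga was 8.29 in control larvae, 8.54 after early exposure and 8.42 after late exposure. The early-window value was 1.19-fold that of control (log2 difference 0.25), 2.24 times the SD between probe sets of a gene, and 4.59% of genes lay at or above it. The late-window difference of 0.13 was 0.79 times the SD, and the late-minus-early difference of -0.12 was -0.90 times the SD. Neither neighbour of the late-window array in the order of gcga values was therefore apart from it by more than probe sets of one gene disagree.

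Insulin differed least on the early-window array. The log2 value of ins was 8.95 in control larvae, 9.03 after early exposure and 9.12 after late exposure. The early-minus-control difference was 0.08, or 0.73 times the SD, and 26.3% of genes lay at or above it. The late-minus-control difference was 0.18, a 1.13-fold higher reading and 1.08 times the SD, with 13.8% of genes at or above it. The late-minus-early difference was 0.10, or 0.71 times the SD. Adjacent arrays in the order of ins values thus differed by less than the disagreement between probe sets of a gene.

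**Figure D1:**
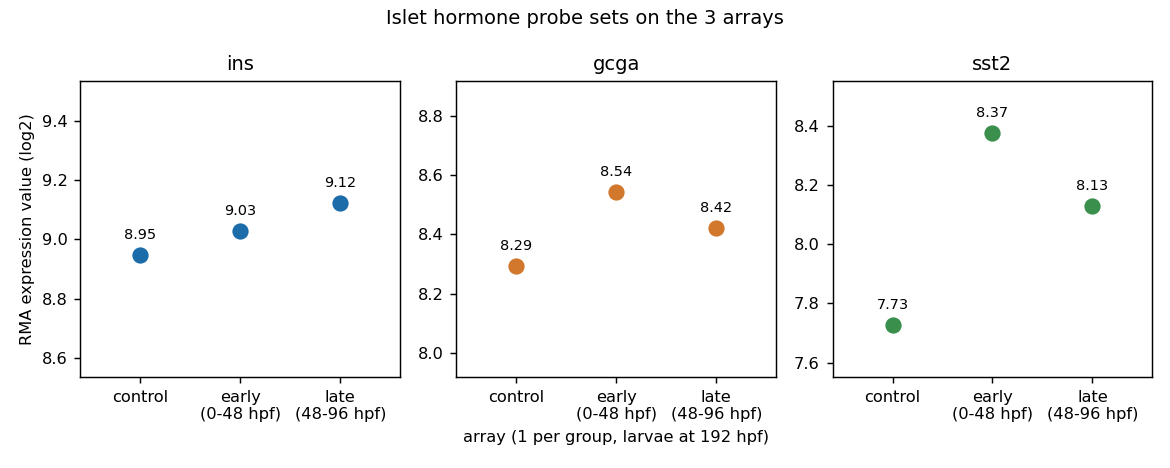
Log2 RMA expression values of the ins, gcga and sst2 probe sets (vertical axis, each panel spanning 1 log2 unit) on the control, early-window and late-window arrays; each point is 1 array, with no error bar because there are no replicates. The control array is the lowest for each gene, and sst2 has the widest spread, from 7.73 to 8.37.

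The hormone genes were all above control on both exposed arrays, 3 of 3 in each comparison, beside 49.6% of all genes above control after early exposure and 45.4% after late exposure. Both comparisons use the same control array and are therefore not independent. The 3 genes were chosen with earlier results of these data known, so these counts are not independent evidence of a direction. The counting size was 1.5-fold (0.58 on the log2 scale). At this size 1 of the 3 hormones, sst2, was higher on the early-window array, beside 0.401% of all genes, and 0 of the 3 on the late-window array, beside 1.11%. In the comparison of the exposed arrays with each other, which leaves the control array out, 1 hormone (ins) was higher in the late window and 2 (gcga and sst2) were lower, with 46.3% of all genes above 0 and 53.7% below, and none of the 3 past 1.5-fold, beside 1.22% of genes higher and 0.528% lower by that size. Because each RNA sample came from whole larvae, more hormone-producing cells and more transcript per cell cannot be told apart.

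**Figure D2:**
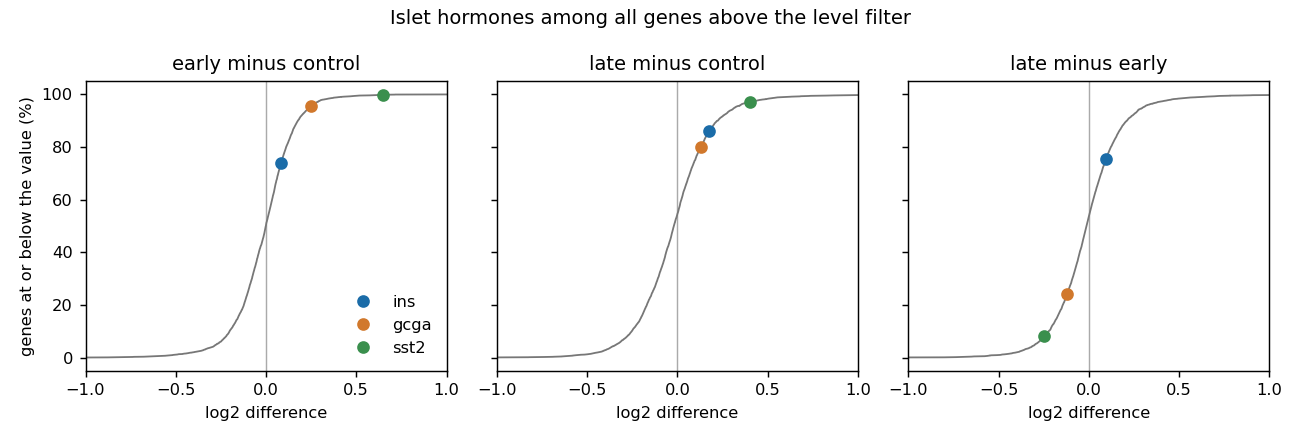
Share of the 5492 genes at or below each log2 difference (grey curve, percent on the vertical axis, horizontal axis drawn from -1 to 1) with ins, gcga and sst2 marked, for each of the 3 comparisons. In the early-minus-control panel sst2 (0.65) lies near the top of the curve, gcga (0.25) below it and ins (0.08) nearer the middle.

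Differences between hormones within an array do not change when an array is rescaled as a whole, as on the spike-in scale. From control to the early-window array, sst2 gained 0.57 on ins (1.48-fold) and 0.40 on gcga (1.32-fold), and gcga gained 0.17 on ins. From control to the late-window array, sst2 gained 0.22 on ins and 0.27 on gcga, while gcga and ins moved alike to within -0.05. The ratios between the 3 hormones thus lay nearer to those of the control array on the late-window array than on the early-window array. This was not tested.

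The other genes of the hormone families and their islet neighbours had few probe sets. Of 13 listed relatives, 2 had a probe set with that single symbol, and 1 passed the level filter. This was sst1.1, another somatostatin gene, whose log2 value was 8.79 in control larvae, 8.58 after early exposure and 8.78 after late exposure. Its early-minus-control difference was -0.22 and its late-minus-control difference -0.01, so sst1.1 and sst2 lay on opposite sides of control after early exposure, except on the spike-in scale, where sst1.1 was at 0.29. The second insulin gene, insb, read 3.77, 3.79 and 4.11 in the same order, below the median of the foreign probe sets on each array, and no difference is drawn from it.

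Genes of hormone precursor trimming, granule proteins and vesicle fusion mostly read below control by small amounts, except that the spike-in scale put their early-window median at 0.33. No convertase that cuts the precursors was measured. Of 32 listed genes, 11 were measured and 10 passed the filter. In the early-minus-control comparison 9 of these 10 were below control, with a median of -0.17, beside 50.4% of all genes below control and a median of 0.00 over all genes. In the late-minus-control comparison 9 of 10 were below control, with a median of -0.18, beside 54.6% and -0.02 over all genes. The exceptions were dnajc3a, a chaperone gene (0.03 in the early comparison), and the chromogranin gene chga (0.01 in the late comparison). The dimmer probe set of chga was below control in both, at -0.24 and -0.16. None reached 1.5-fold, beside 0.601% of all genes lower by that size after early exposure and 0.674% after late exposure. The carboxypeptidase cpe, which trims cut hormone precursors, was at -0.23 on the early-window and -0.31 on the late-window array. The convertase inhibitor gene pcsk1nl was at -0.19 and -0.35, the secretogranin gene scg2a at -0.27 and -0.13, and snap25b, part of the vesicle fusion machinery, at -0.29 and -0.17. These genes are shared with neurons and other endocrine cells, and their part in islet cells cannot be read from whole larvae. Relative to the median of this list, sst2 was 1.76-fold higher after early exposure and 1.499-fold higher after late exposure than on the control array. The same ratios were 1.34-fold and 1.24-fold for gcga and 1.19-fold and 1.28-fold for ins.

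Regulators of islet cell identity did not move as one group. Of 39 listed transcription factors, 24 were measured and 16 passed. In the early-minus-control comparison 4 were above and 12 below control with a median of -0.12, and in the late-minus-control comparison 8 were above and 8 below with a median of 0.01. Over all genes 50.4% were below control in the early and 54.6% in the late comparison. In the late window 1 of the 16, sox9b, was at least 1.5-fold lower, beside 0.674% of all genes. The spike-in scale turned the early-window median to 0.38 and the late-window median to -0.00128. The largest early-window difference was in pax6b, a Pax6 gene that acts in islet cells and in the eye and brain, whose log2 value was 7.61 on the control, 7.09 on the early-window and 7.25 on the late-window array (differences -0.52 and -0.36). On both exposed arrays, neurod1, a factor of islet cells and of neurons, was lower too (-0.32 and -0.44), as was isl1a, the gene of the LIM factor Isl1 (-0.21 and -0.22). The dimmer probe set of isl1a gave -0.10 and -0.10. A Maf factor gene, mafbb, was higher (0.27 and 0.36). Other listed factors above control on both exposed arrays included foxa1 (0.17 and 0.28) and prox1a (0.05 and 0.17). Another homeodomain factor of the islet, nkx2.2a, was at -0.14 and 0.11. The pancreas factor gene pdx1 read 6.27, 6.18 and 6.36 on the control, early-window and late-window arrays, under the level filter. The probe sets of sox9b, a progenitor factor of the pancreatic ducts and also of cartilage, disagreed. The brighter one gave -0.01 (early) and -0.71 (late), and the dimmer gave 0.43 and 0.41.

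As a check of the label, 7 of 13 islet markers had a probe set and 6 passed the filter, among them the 3 hormones, neurod1, nkx2.2a and pax6b. The hormones are the members themselves, so they cannot check the label. On the deposited scale the 6 had a median early-minus-control difference of -0.03 with 3 higher, the hormones, beside 49.6% of all genes. The median late-minus-control difference was 0.12 with 4 higher, the hormones and nkx2.2a, beside 45.4%. Apart from the hormones, neurod1, nkx2.2a and pax6b were thus all below control in the early window, and neurod1 and pax6b in the late window. A further marker, isl1, was listed under an older symbol and is not in these counts; its values are those of isl1a above. The prohormone convertases pcsk1 and pcsk2, and rfx6, mnx1 and insm1a, had no probe set with that single symbol here. Of the other cell types with listed markers, exocrine pancreas had 9 of 11 markers above the filter, pituitary 1 of 6 (gh1) and neurons and gut endocrine cells 1 of 7 (pyya). The gut and islet peptide gene pyya was at 0.31 on the early-window and 0.13 on the late-window array by its brighter probe set, and at -0.03 and -0.06 by the other. Growth hormone, gh1, was at -0.36 and -0.14. Whether cells outside the islet contributed to the hormone readings was not tested.

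The exocrine pancreas, which surrounds the islet, read differently from the hormones on the early-window array. Of 47 listed genes, 22 were measured and 17 passed, and all 17 were below control with a median of -0.58, with 8 at least 1.5-fold lower, beside 50.4% of all genes below control and 0.601% lower by that size. That median was -0.56 with median centring, -0.58 after a second quantile normalization and -0.60 with the loess correction. The spike-in scale put it at -0.08, so these counts of exocrine genes do not carry over to the spike-in scale. This list overlaps one already known to be lower in these data and is not independent evidence of its direction. The largest differences were in the pancreatic phospholipase pla2g1b (-1.09), the astacin protease c6ast3 (-0.95), amylase, amy2a (-0.92), and the carboxyl ester lipase cel.1 (-0.85). The median level over the 9 exocrine markers was 11.51 (control), 10.86 (early window) and 11.40 (late window). Relative to the median exocrine gene, sst2 was 2.34-fold higher on the early-window array than on the control array, gcga 1.77-fold higher and ins 1.58-fold higher. These ratios, too, do not change when an array is rescaled as a whole. In the late window the exocrine list had a median of -0.01, with 8 of 17 genes above control, beside 45.4% of all genes. The same ratios were 1.33-fold for sst2, 1.099-fold for gcga and 1.14-fold for ins on the late-window array.

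**Figure D3:**
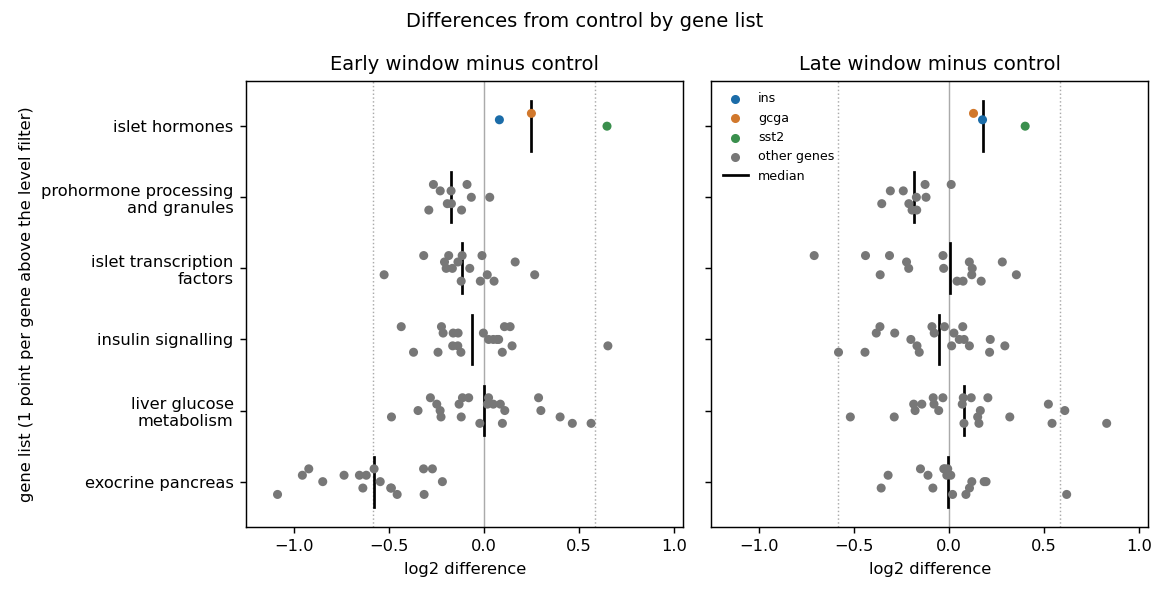
Log2 differences from control on the early-window (left) and late-window (right) array for the genes of 6 lists that passed the level filter; each point is a gene, black bars are list medians and dotted lines mark 1.5-fold. On the deposited scale drawn here, the 3 hormones lie above 0 and all 17 exocrine genes below it on the early-window array. On the late-window array the exocrine median is at -0.01.

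Receptors of the hormones were mostly not measured or too dim to compare. Of 16 listed receptor genes, 5 were measured. These included the insulin-like growth factor receptor genes igf1ra and igf1rb and no glucagon receptor gene. Only 1 passed, the insulin receptor gene insra, whose brightest probe set was at -0.13 on the early-window and 0.03 on the late-window array. Its other probe sets were at -0.18 and -0.05 in the early and at -0.18 and -0.08 in the late comparison, and the mean over probe sets turned the late difference to -0.08. The somatostatin receptor gene sstr5 read 5.97, 6.04 and 5.87 on the control, early-window and late-window arrays, under the filter. Genes of beta-cell glucose sensing were also thinly covered, with 4 of 21 above the filter and medians of 0.01 and 0.06. In this set pcxb, a pyruvate carboxylase gene, was at 0.29 and 0.09. It read 7.17 on the control array and passed the level filter only through the exposed arrays, where it was higher. Its differences therefore support nothing, and the medians include it.

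Genes of insulin signalling showed no common direction. Of 44 listed, 22 were measured and 20 passed, with 9 above and 11 below control in each comparison with control and medians of -0.06 (0.44 on the spike-in scale) and -0.05. Over all genes, 49.6% were above control in the early window and 45.4% in the late window. The insulin receptor substrate gene irs2a was at -0.43 after early exposure and -0.09 after late exposure. The lipid phosphatase gene ptena, which opposes the PI3-kinase step of insulin signalling, was at -0.37 and -0.58, and eif4ebp3l, a gene of the translation repressors that insulin signalling switches off, at -0.24 and -0.44. At least 1.5-fold higher on the early-window array was 1 of the 20 genes, beside 0.401% of all genes. This was socs3b, an inhibitor of cytokine signalling (0.65, and 0.29 on the late-window array).

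Among genes listed for glucose and amino acid metabolism of the liver, 22 of 44 passed. The RNA came from whole larvae, so these are not readings of the liver alone. On the early-window array 11 were above and 11 below control (median 0.00), beside 49.6% of all genes above control. On the late-window array 13 were above and 9 below (median 0.08), beside 45.4% above control and a median of -0.02 over all genes. These counts include tat, whose limit is given below. The liver glycogen phosphorylase gene pygl, whose enzyme glucagon activates, had the largest difference. Its log2 value was 9.56 on the control, 10.13 on the early-window and 10.40 on the late-window array, which gives differences of 0.56 and 0.83. The other probe sets of pygl gave 0.38 and 0.36 after early exposure and 0.53 and 0.34 after late exposure. The binding protein genes igfbp1a and igfbp1b, whose mammalian counterpart insulin represses, were at 0.40 and 0.47 on the early-window array and at 0.32 and 0.54 on the late-window array. The dimmer probe set of igfbp1a gave 0.46 after early and 0.21 after late exposure. The gluconeogenic enzyme gene pck1, which glucagon induces and insulin represses in mammals, was at -0.28 and -0.03. Other genes of this list below control on both exposed arrays included ppargc1b (-0.49 and -0.52) and pdk4 (-0.23 and -0.29). The dimmer probe set of ppargc1b gave -0.30 and -0.30. The gene g6pc1a.2 was at -0.51 and -0.70 but lay under the level filter. The tyrosine-breakdown gene hpda was at 0.61 on the late-window array and 0.30 on the early-window array. Another such gene, tat, read 6.75 (control), 6.62 (early window) and 7.27 (late window), so it passed the level filter only through the late-window array, where it was high, and its differences of -0.13 and 0.52 support nothing. In all, 2 genes of this list, pygl and hpda, were at least 1.5-fold higher in the late window, beside 1.11% of all genes. The mean over its probe sets put pygl at 0.57, under that size.

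The genes most like each hormone were those with the smallest Euclidean distance between log2 values centred on their own mean over the 3 arrays. They were sought among genes above the level filter, and clone names and symbols starting with LOC were left out. For sst2 these were elf3 (distance 0.060), an epithelial transcription factor gene, slc4a1a (0.079), the anion exchanger of red blood cells, and pdcl3 (0.088). For gcga they were sec23ip (0.0076), cbsb (0.010) and chmp2bb (0.012), and for ins eef1b2 (0.0043), msrb1b (0.0049) and gdpd1 (0.0064). With 3 arrays many genes share a pattern this simple. The nearest genes of sst2 lay farther from it than those of gcga and ins did from theirs. Fewer genes had an early-minus-control difference at least as high as sst2 (16) than as gcga (252) or ins (1443). The distances are therefore not read as a trait of sst2. Of the genes near gcga, sec23ip read 7.20 on the control array and passed the level filter only through the exposed arrays, where it was higher.

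**Figure D4:**
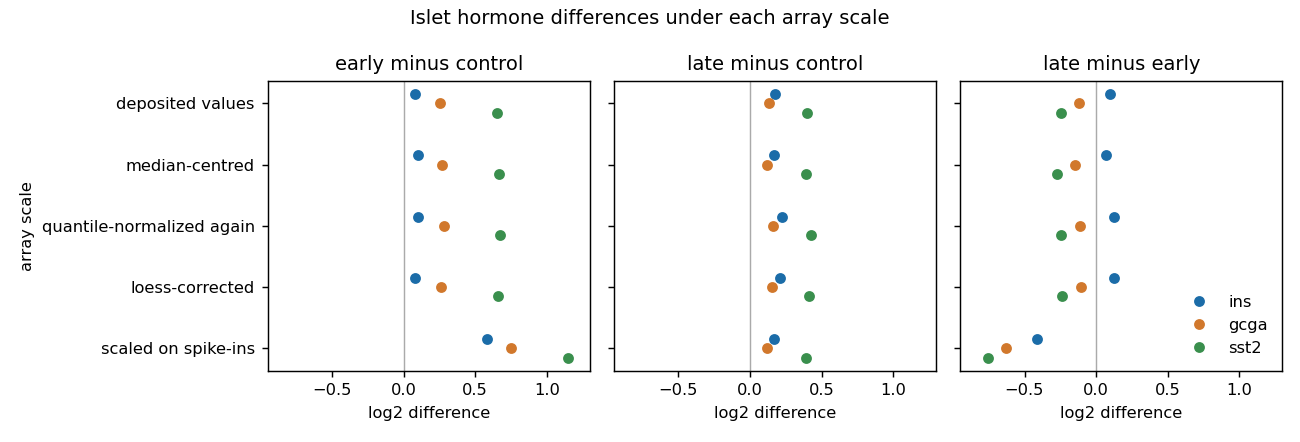
Log2 differences of ins, gcga and sst2 (horizontal axis) in each comparison under 5 array scales (vertical axis); each point is 1 gene under 1 scale. Under the deposited, median-centred, quantile-normalized and loess-corrected scales the early-minus-control difference of sst2 stays between 0.65 and 0.67, and the spike-in scale puts it at 1.15.

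The scale of the early-window array moved the hormone differences more than any other choice tried. With the arrays scaled on the spike-ins, the early-minus-control differences were 0.58 for ins, 0.75 for gcga and 1.15 for sst2, and the late-minus-early difference of ins turned to -0.41. The order of the hormones in these comparisons, and their differences from each other within an array, were the same on both scales.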

How the data were processed

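Total RNA of zebrafish larvae was hybridised to Affymetrix arrays, 1 per group. The deposited table holds log2 values that the authors made with RMA, per the submitters' processing notes; no software is named there. Gene symbols came from the 2016 platform annotation. Of 15617 probe sets, 10802 had 1 symbol, 135 several and 4680 none, and 10718 matched RefSeq genes (GRCz12tu assembly) by Entrez ID, which updated 1 symbol. A gene was read from its probe set with the highest mean over the arrays, and compared when its highest value reached 7.21; 5492 genes passed. Differences are between arrays, with no test. Besides each hormone probe set, the text names up to 4 genes a list with the largest difference from control, and genes completing a list. It names the 3 genes nearest each hormone, with clone names and LOC symbols left out. It also names genes from the signalling or target set of a hormone. In the liver list igfbp1a, pck1, ppargc1b, pdk4 and g6pc1a.2 were named by choice and not by size. The members and the 10 lists were chosen with earlier results of these data known. Alternatives were other array scales (median, quantile, loess with span 0.3, spike-ins), level filters, a 2-fold size and the mean over probe sets. Counting, medians, normalization and nearest-gene steps were tested on simulated data. The number of arrays limits the precision. Python 3.11.15, pandas 2.3.3 and statsmodels 0.14.6 were used.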

Additional observations from a re-analysis of the deposited data

Results flagged for a closer look

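Among the hormones and the genes named from the lists, 3 genes lay on opposite sides of control on the exposed arrays, each by more than the SD between probe sets of a gene. With 1 array per group this difference was not tested. The phospholipase gene pla2g1b was at -1.09 on the early-window and 0.62 on the late-window array. The lipase gene cel.1 was at -0.85 and 0.19. The tyrosine aminotransferase gene tat was at -0.13 and 0.52, but it passed the level filter only through the late-window array, where it was high.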

How the results depend on the processing

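The differences of ins, gcga and sst2 moved by less than the SD between probe sets of a gene under median centring, a second quantile normalization and the loess correction, and kept their signs. The mean over probe sets cannot change them, because each has 1. Scaling on the spike-ins gave 0.58 (ins), 0.75 (gcga) and 1.15 (sst2) for early minus control and -0.41, -0.63 and -0.76 for late minus early. The counts at 1.5-fold were 22 higher and 33 lower (early), 61 and 37 (late) and 67 and 29 (late minus early). At 2-fold they were 5 and 2, 17 and 5, and 18 and 4. On the spike-in scale they were 1418 higher and 1 lower for early minus control and 13 higher and 1858 lower for late minus early. The late-window count lower was 23 with the mean over probe sets and 22 when the level filter was raised to the 75th percentile. That filter put the late-window median of the islet transcription factors at -0.22. On the spike-in scale the early-window medians were 0.38 for islet transcription factors, 0.33 for prohormone processing and 0.44 for insulin signalling. For the genes named from lists these alternatives were chosen after seeing the data; the mean over probe sets put sox9b at 0.21 (early) and -0.15 (late) and pygl at 0.43 and 0.57, the latter under 1.5-fold. No paired analysis was possible because each group has 1 array.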
